A study of Mus musculus with 8 samples.

Results

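The regions described here carried an open-chromatin peak in granule neuron progenitors (GNPs) with 1 disrupted copy of Chd7 and in GNPs with both copies disrupted, and no peak in the wild type. They were found by joining autosomal peaks of the WT, het and mutant lists that lay less than 300 bp apart and by keeping the joined regions that held a het and a mutant peak and no WT peak. This gave 5648 members of 186451 joined regions, or 3.03%. Membership was thus chosen by peak calls in the same lists, and peak strengths of the members are given as descriptions without a test. The mutant label covers homozygous loss.

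ATAC-seq, in which the Tn5 transposase cuts and tags accessible DNA, had been performed on freshly isolated GNPs of mouse cerebellum at postnatal day 7, with 3 WT, 3 mutant and 2 het libraries. The strain label reads C56Bl6/J, while the methods of the study name C57BL/6N for the pups from which GNPs were purified, and GNPs were enriched by percoll gradient without regard to the sex of the pups. By the genotypes that the study uses elsewhere, WT is Chd7 f/f, mutant is Atoh1-Cre::Chd7 f/f and het carries Atoh1-Cre with 1 floxed and 1 intact Chd7 copy. Het and mutant therefore share the Cre transgene, which acts in cells that express Atoh1 or descend from them, and WT lacks it. WT and mutant replicates are described as technical, the lists were called on the pooled libraries of each genotype, and no value below has an error between libraries or animals.

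Chd7 is a chromatin remodelling enzyme that slides nucleosomes at promoters and enhancers. GNPs divide in the outer layer of the postnatal cerebellum under Sonic hedgehog signalling, then leave the cell cycle, migrate inwards and become granule neurons. Basic helix-loop-helix factors such as Atoh1 in progenitors and Neurod1 in differentiating cells bind E-boxes, NFI factors act in maturing granule neurons, and Sox factors bind short A-rich sites.

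The windows printed next are the strongest member and the next 6 of the 30 members named by strength whose window, 100 bp to either side of the mutant summit, held one of the words on which the sequence comparison turns. They are mm10 (GRCm38) plus-strand sequences of the RefSeq assembly, and capitals mark the E-box word CATCTG, the A-rich word AACAAA and the NFI word TTGGCA on either strand. The E-box word reads CAGATG, the A-rich word TTTGTT and the NFI word TGCCAA on the other strand. Different words can share at most 2 letters at their ends, and the Retreg1 window shows an A-rich word and an E-box word side by side.
Kif13b intron, chr14:64682644-64682844: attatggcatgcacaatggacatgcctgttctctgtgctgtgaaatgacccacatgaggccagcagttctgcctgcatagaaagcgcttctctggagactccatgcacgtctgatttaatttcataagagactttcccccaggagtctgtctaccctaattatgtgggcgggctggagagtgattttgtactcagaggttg
Tmem132c intron, chr5:127370563-127370763: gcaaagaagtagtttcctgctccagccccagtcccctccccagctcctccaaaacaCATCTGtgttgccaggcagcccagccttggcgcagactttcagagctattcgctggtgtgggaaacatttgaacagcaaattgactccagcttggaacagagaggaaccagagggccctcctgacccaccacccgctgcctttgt
intergenic, nearest start Gm47903, chr10:66900878-66901078: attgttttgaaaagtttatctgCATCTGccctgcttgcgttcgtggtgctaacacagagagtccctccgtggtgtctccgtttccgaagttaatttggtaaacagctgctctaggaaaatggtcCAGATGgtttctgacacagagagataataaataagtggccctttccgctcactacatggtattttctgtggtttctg
Amotl1 intron, chr9:14641402-14641602: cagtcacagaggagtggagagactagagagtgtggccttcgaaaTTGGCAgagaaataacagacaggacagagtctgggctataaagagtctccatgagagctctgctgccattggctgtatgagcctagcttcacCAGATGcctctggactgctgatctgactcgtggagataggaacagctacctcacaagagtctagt
intergenic, nearest start Gm34397, chr9:100400418-100400618: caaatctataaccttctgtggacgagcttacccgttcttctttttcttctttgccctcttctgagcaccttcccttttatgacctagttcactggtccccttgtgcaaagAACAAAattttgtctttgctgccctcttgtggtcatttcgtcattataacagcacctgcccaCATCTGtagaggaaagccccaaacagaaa
Retreg1 intron, chr15:25922222-25922422: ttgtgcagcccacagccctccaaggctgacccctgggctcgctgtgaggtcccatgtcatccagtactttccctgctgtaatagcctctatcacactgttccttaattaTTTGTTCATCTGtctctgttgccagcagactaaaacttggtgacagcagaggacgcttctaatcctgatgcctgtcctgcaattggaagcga
C530008M17Rik intron, chr5:76844689-76844889: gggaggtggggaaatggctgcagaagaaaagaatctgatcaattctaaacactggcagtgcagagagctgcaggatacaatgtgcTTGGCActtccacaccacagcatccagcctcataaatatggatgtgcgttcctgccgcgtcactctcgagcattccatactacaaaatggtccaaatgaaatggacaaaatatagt
The Kif13b window held none of the words, as did 2638 of all 5648 members (46.7%). Of the 30 windows of the named members, 12 held at least 1 word, with the E-box word in 8, the A-rich word in 5 and the NFI word in 4.

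Depth, alignment, peak calling and the peaks at Y-linked promoters differed between the lists, and these values stand beside every result below. After filtering, 50394313 WT, 51030229 mutant and 30923002 het tags were left, per the file headers, and the lists held 149637, 170362 and 104396 autosomal peaks. Per the labels, het reads were aligned with Bowtie, whereas WT and mutant reads had been aligned with STAR. By the headers, tags were extended to 200 bp in het, 90 bp in WT and 88 bp in mutant. The methods of the study name Bowtie and an extension of 200 bp for ATAC-seq without setting a genotype apart. Tag size before extension was the same in WT and het and shorter in mutant. Members need a mutant call and mirror regions a WT call, so tag size differs along that contrast. Its part in the shares compared below was not tested. Promoters of 6 of 6 GNP marker genes held a peak in every list, and of 46 genes that mark other cerebellar cells 39 held a promoter peak in WT, 35 in het and 38 in mutant. Promoters of the Y-linked genes Ddx3y, Uty, Eif2s3y and Kdm5d held peaks in WT, at ranks of 91.0, 90.2, 86.0 and 25.9, and none in het or mutant. A rank gives how many percent of the peaks in a list had a -log10 q no higher than the peak in question, with 100 for the strongest. The WT pool thus differed from both other pools at these Y-linked promoters, with the same split of lists as the membership rule. The labels give no sex, other regions of chromosome Y had peaks in het and mutant too, and a difference in the sex of the pooled pups, Cre and Chd7 genotype cannot be told apart in the members. On chromosome X, which was not part of the rule, 127 of 4034 joined regions (3.15%, 95% interval 2.65 to 3.73) had a het and a mutant peak and no WT peak, close to the autosomal share.

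The members were outnumbered by most other classes of joined regions. Peaks of all 3 lists fell into 84910 regions, 37483 regions were found in mutant alone, 25002 in WT alone, 23774 in WT and mutant and 6523 in het alone. The mirror class, with a WT and a het peak and no mutant peak, held 3111 regions, so that members were 1.82 times as many. This ratio changed with the lengths of the lists. When each list was cut to its strongest peaks at equal length, 5088 members stood against 5261 mirror regions, a ratio of 0.967. At -log10 q of 5 or more in all lists the ratio was 2.10. Both cuts were made before joining. Regions counted as members there can hold a WT peak below the cut, and mirror regions a mutant peak, so these are partly other regions. The mirror class serves as the main comparison below because it shares the het list and its processing with the members.

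**Figure D1:**
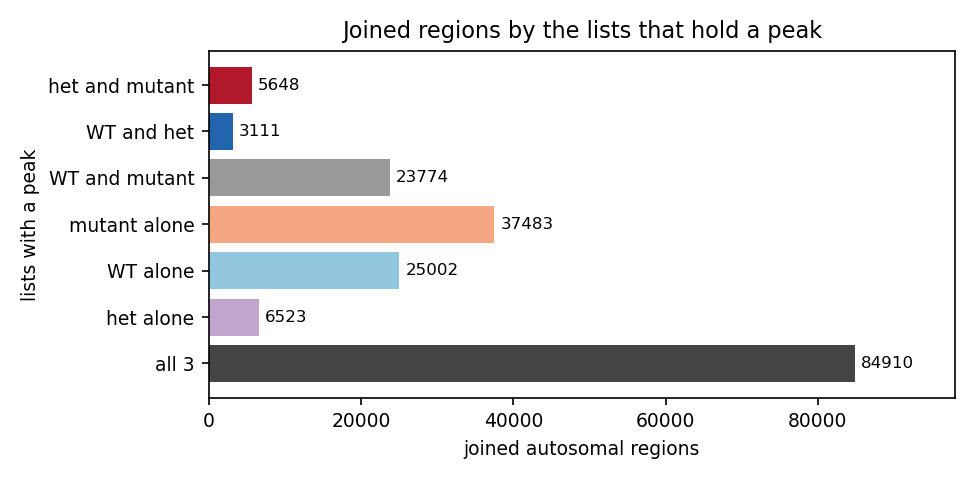
Number of joined autosomal regions (horizontal axis) for each combination of lists with a peak (vertical axis). The 5648 regions in het and mutant and the 3111 in WT and het are the smallest classes, and the 84910 regions in all 3 lists the largest.

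Most members were weak peaks, as the rule favours. The median rank of their peaks was 16.3 in the het list (quartiles 7.95 and 26.4, highest 68.4) and 34.7 in the mutant list (17.8 and 46.4, highest 86.5), against medians of 58.7 and 74.1 for regions in all 3 lists. Fold enrichment over local background had a median of 3.79 in het and 4.24 in mutant, and pileup, the number of extended tags at the summit, a median of 13 and 12. The mutant rank was above the het rank in 4322 members (76.5%), and only 46 members had both ranks over 50. Mirror regions had the same median rank in het, 16.3, and a median rank of 26.7 in WT. Het strength thus was alike in both classes by this measure.

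**Figure D2:**
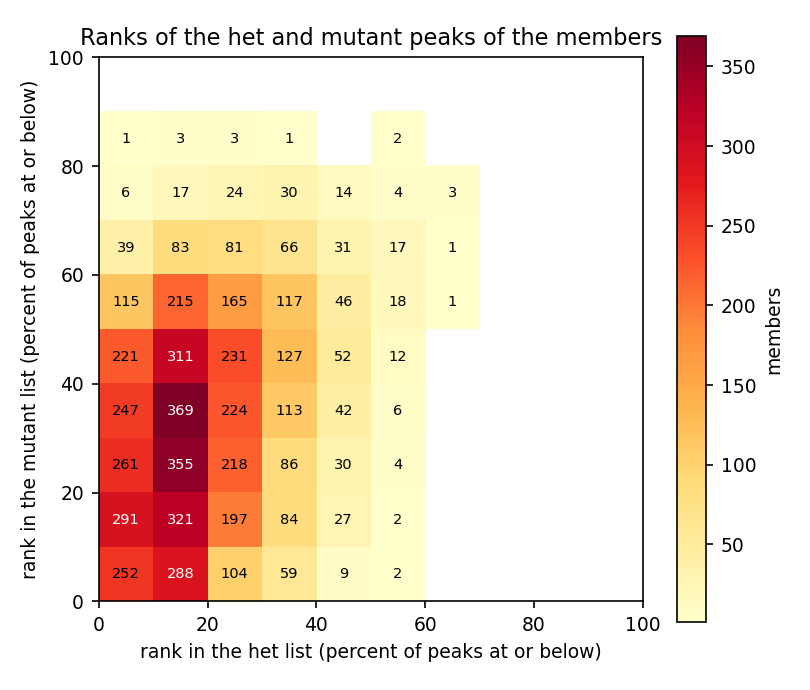
Number of members in squares of 10 rank units, by rank in the het list (horizontal axis) and in the mutant list (vertical axis), in percent of the peaks of each list. Members gather at low het ranks, with the fullest square at 369 members, and none lies above a het rank of 70.

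The het and mutant peaks of a member lay close together, which the joining of peaks less than 300 bp apart largely fixes. The values are given as descriptions, without another class beside them. In 5286 members (93.6%) they overlapped, and the strongest summits lay a median of 59 bp apart (quartiles 24 and 124). Members had a median length of 308 bp and covered 1.93 Mb together. The nearest WT peak was a median of 5.53 kb away, and 681 members (12.1%) had one within 1 kb. Regions in mutant alone had a median of 5.67 kb and 11.2% within 1 kb, and regions in het alone 7.09 kb and 8.85%. At the limit of the rule, 103 members lay from 300 to under 400 bp from a WT peak, with a median mutant rank of 27.6 and het rank of 14.1, and 176 sites with a WT peak from 200 to under 300 bp away were excluded, with medians of 31.3 and 16.3.

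Members lay mostly within introns and between genes. Of their mutant summits, 45.5% (95% interval 44.2 to 46.8) fell into introns, 43.9% (42.6 to 45.2) were intergenic, 6.57% (5.95 to 7.24) lay within 1 kb of a transcription start site (TSS) and 4.05% in exons. Intervals throughout are Wilson intervals, which cover counting error only. In the mirror class 41.3% (39.6 to 43.0) were intronic and 48.6% (46.8 to 50.4) intergenic, and neither interval overlapped that of the members. By het rank, both were apart only up to rank 20. With het ranks over 20 up to 40, introns held 45.9% of members (43.6 to 48.1) and 42.1% of mirror regions (39.1 to 45.1). The intergenic intervals overlapped there too, as did both over 40 up to 60. The share at a TSS was 5.56% (4.81 to 6.42) in the mirror class, with overlapping intervals, and 20.5% in regions of all 3 lists. Among regions of all 3 lists with a het rank of 20 or below, nearer to members in strength, the share at a TSS was 8.86% (8.28 to 9.47).

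**Figure D3:**
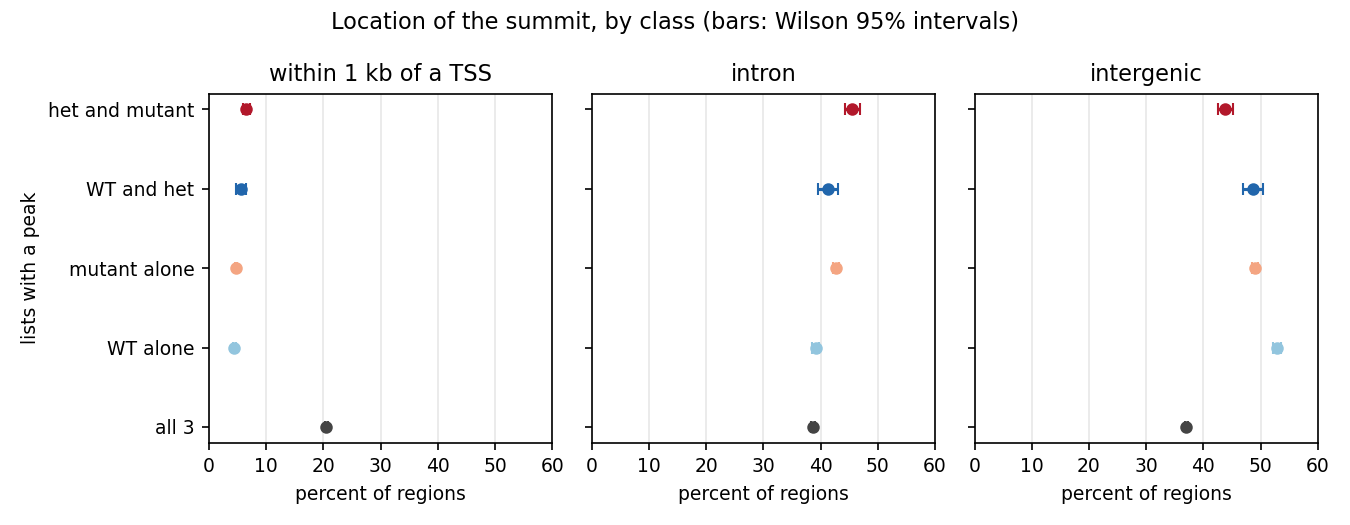
Share of regions (horizontal axes, percent) with the summit within 1 kb of a TSS, in an intron or between genes, for 5 classes of joined regions; points are shares and bars Wilson 95% intervals. The intervals of members lie above those of regions in WT and het for introns and below them between genes, and both classes lie far below regions in all 3 lists at a TSS.

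The widest difference in sequence between the members and the mirror class was in 1 E-box. Away from TSS, CATCTG, the E-box that Atoh1 and Neurod factors prefer, was held by 27.0% of 5277 member windows (25.8 to 28.2) and by 33.6% of 2938 mirror windows (31.9 to 35.3). Regions in all 3 lists stood at 34.3%, WT alone at 27.6% (27.0 to 28.2) and mutant alone at 24.6% (24.2 to 25.1). Over all joined regions away from TSS, the share was 29.8%. The share was below that of the mirror class in each stratum of het rank, with intervals that did not overlap. With het ranks up to 20 it was 25.6% against 32.1% in the mirror class, with ranks over 20 up to 40 it was 28.9% against 34.2%, and with ranks over 40 up to 60 it was 30.2% against 47.4%, the last from 295 members and 156 mirror regions. With lists of equal length, the shares were 28.3% (27.1 to 29.7) in members and 39.8% (38.4 to 41.2) in mirror regions. These are partly other regions, since members can then hold a WT peak, and mirror regions a mutant peak, below the cut. Of the other E-boxes, CATATG was held by 5.31% (4.73 to 5.94) against 8.58% (7.62 to 9.64) and CACCTG by 13.3% (12.4 to 14.2) against 16.1% (14.8 to 17.5), whereas CAGCTG had overlapping intervals at 23.3% (22.2 to 24.4) and 24.1% (22.6 to 25.6). Regions in all 3 lists held these E-boxes in 6.19%, 13.9% and 28.4% of windows away from TSS. The E-box words are special cases of CANNTG, which 77.6% of all members and 81.5% of all mirror regions held.

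A-rich words leaned the other way. Among all 2080 words of 6 letters, each counted on both strands, AACAAA had the widest margin in favour of members, 17.1% (16.1 to 18.1) against 11.4% (10.3 to 12.6) of windows away from TSS, and CATCTG the widest in favour of the mirror class. The intervals did not overlap for 101 words higher in members and for 76 words lower in members. This scan was chosen after the values were seen, it is not a test, and its words share letters. The next words in favour of members were AAACAG, with 20.3% against 15.4%, and ACAAAG, with 18.02% against 13.5%. AACAAA, a core of sites bound by Sox factors, was held by 16.2% of windows in mutant alone (15.8 to 16.6), 14.1% in all 3 lists and 14.4% of all joined regions, in each case away from TSS, and the interval for WT alone was 11.6 to 12.4. The share in members stayed above that of the mirror class for het ranks up to 20 (17.1% against 10.8%), over 20 up to 40 (16.7% against 12.5%) and over 40 up to 60 (19.3% against 8.97%), with no overlap of the intervals. With lists of equal length, and thus in partly other regions, it was 17.0% (15.9 to 18.1) against 11.6% (10.7 to 12.5).

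The NFI word TTGGCA, a core of sites bound by NFI factors, was held by 24.5% of member windows away from TSS (23.3 to 25.6), by 20.9% of mirror windows (19.5 to 22.4), by 27.1% of windows in all 3 lists and by 23.2% of all joined regions, all away from TSS. Within strata of het rank its intervals in members and mirror regions separated only up to rank 20, at 23.8% (22.4 to 25.4) against 19.6% (17.9 to 21.5). Over 20 up to 40 the shares were 25.1% and 23.2%, with overlapping intervals. Other motifs differed less between the classes, TSS included. The AP-1 letters TGANTCA were found in 7.67% of members and 6.11% of mirror regions, with intervals that just overlapped, the homeobox letters TAATTA in 6.16% (5.56 to 6.82) and 4.73% (4.03 to 5.53), the Sox letters ACAATG in 11.6% (10.8 to 12.4) and 9.48% (8.50 to 10.6), and the GC box GGGCGG in 5.05% and 4.53%, below the 15.1% of regions in all 3 lists. All joined regions held these letters in 6.48%, 5.08%, 10.1% and 9.26% of windows. Among letters that leaned towards the mirror class was the CCAAT box CCAAT, in 25.6% of members (24.5 to 26.7) and 28.1% of mirror regions (26.6 to 29.7). The CTCF letters AGGNGGC were in 14.9% and 16.7%, and the Gli letters GACCNCCC in 1.70% and 2.28%. Intervals of members and mirror regions overlapped for each of them, and all joined regions stood at 27.6%, 18.6% and 1.86%. A match is a run of letters and not a bound site.

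**Figure D4:**
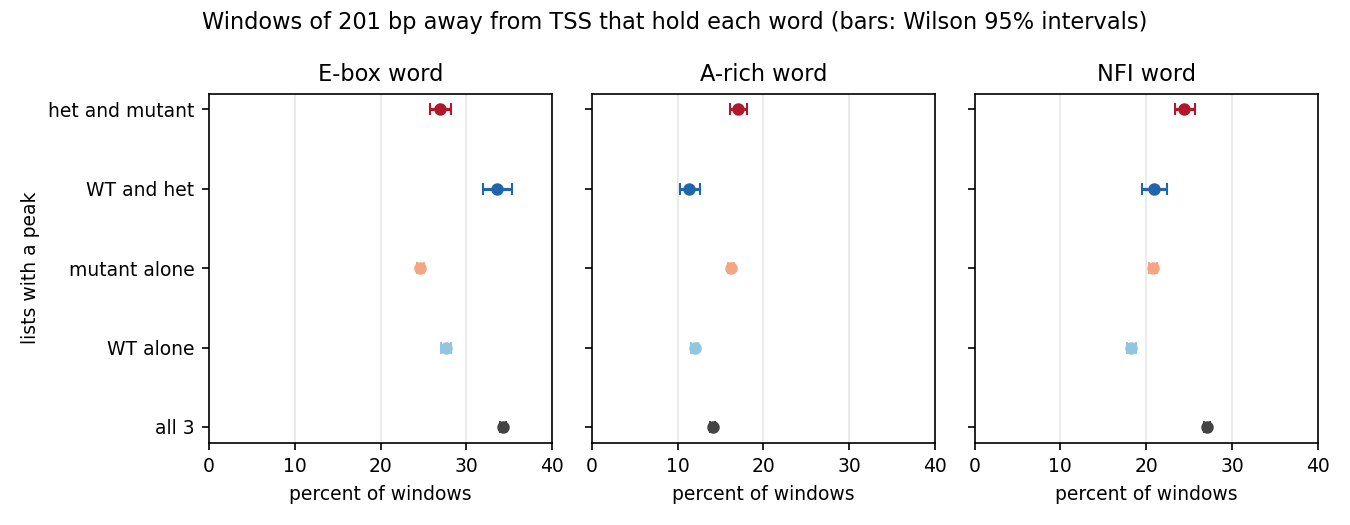
Share of windows (100 bp to either side of the summit) away from TSS (horizontal axes, percent) that hold the E-box, A-rich or NFI word on either strand, for 5 classes of joined regions; points are shares and bars Wilson 95% intervals. The intervals of members lie below those of regions in WT and het for the E-box word and above them for the A-rich and NFI words.

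Base composition was nearly alike, with a median of 49.8% GC in members and 50.7% in mirror regions. More than 50% of the window was soft-masked repeat sequence in 4.92% of members (4.39 to 5.52), 8.20% of mirror regions (7.28 to 9.21), 13.9% of regions in mutant alone and 1.98% of regions in all 3 lists. Among members without any masked base, 28.2% (26.5 to 29.9) of the windows away from TSS held the E-box word and 15.2% (13.8 to 16.6) the A-rich word. The shares in mirror regions without a masked base were not computed, so the contrasts of the classes were not examined there.

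Of the 20 members highest by the lower of their ranks, 10 were intronic, 9 intergenic, 1 exonic and 0 at a TSS. Their median distance to the nearest start was 15.97 kb, shorter than the 26.3 kb of all members. A lncRNA start was the nearest for 8 of the 20, but no share over all members or all joined regions stands beside this count. The highest lay in an intron of Kif13b, which encodes a kinesin motor, at chr14:64682272-64682898, with a fold enrichment of 7.90 in het and 8.64 in mutant and ranks of 64.8 and 75.7. The nearest WT peak was 5.99 kb away. The second lay in an intron of Tmem132c, at chr5:127370498-127370896, with ranks of 64.0 and 74.0 and fold enrichments of 7.46 and 8.05. An intronic member of Lrrc20 had ranks of 64.9 in het and 61.1 in mutant, and an intergenic one 14.9 kb from the start of Wdr17 had 60.7 and 73.8. These sites ranked above most peaks of both lists while WT had no call within 5 kb.

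Among the other strong members, Prkce, a protein kinase C, held one with 40 tags at the summit in het and 33 in mutant, the highest pileups of the 20. Ap3b1, a subunit of a vesicle coat, held one with fold enrichments of 6.40 and 6.34. Further members lay in introns of Pknox2, a homeobox factor, Amotl1, a junction protein, and Retreg1, a receptor for turnover of the endoplasmic reticulum, and in an exon of Myo5a, a motor for organelle transport. Between genes, the nearest coding start was as far as 870.6 kb away for one member (Tenm4), and for others it was that of Adgrg1, an adhesion receptor, at 19.4 kb, or of Ssr3 at 13.3 kb. Over the 20, fold enrichment ran from 4.41 to 7.90 in het and from 4.96 to 9.88 in mutant, and 4 had a WT peak within 1 kb.

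Members at a TSS were 371 in number. The strongest lay 332 bp from the start of Muc20, a mucin gene, with fold enrichments of 6.15 in het and 8.26 in mutant and ranks of 52.6 and 73.8. Next came the lncRNA gene B930092H01Rik (ranks 47.2 and 48.9), Trak1, an adaptor that links mitochondria to motors (46.8 and 70.5), and Jak3, a kinase of cytokine receptors (45.6 and 53.3). Gm26685, Spag1, Rnf17, 4931423N10Rik, C030034L19Rik and Capn5 completed the 10 highest. Of the 10, 3 were nearest to a lncRNA start, again without a share over all members beside the count. The mutant ranks of the 10 ran from 42.3 to 75.03. The Trak1 member lay 386 bp from a WT peak and thus just beyond the joining distance, whereas the WT peak nearest to the 4931423N10Rik member was 17.6 kb away.

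Genes of the granule lineage, from cell cycle genes to those of migration and maturation, held 41 members at 23 of 62 matched genes, counting the gene body with 5 kb before it and 1 kb after it, or 3.36% of their 1219 regions (2.49 to 4.53), beside 3.03% of all regions. They held 29 mirror regions, 2.38% (1.66 to 3.40). Of the 41 members, 36 were intronic and 3 lay at a TSS. Hedgehog pathway genes were among them, with 3 members in introns of Gli3, a zinc finger factor that represses targets without the signal, 1 at Gli2 and 1 at Boc, a co-receptor. The strongest mutant peak at Gli3 had a rank of 69.0 and a fold enrichment of 7.22 but a het rank of 16.3. Ccnd2, a cyclin that drives the division of progenitors, held 1 member 410 bp from its start, with fold enrichments of 2.65 in het and 3.04 in mutant. A WT peak of rank 89.99 lay 410 bp from it.

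By the lower of the ranks, the strongest of these members lay at Tiam1, an activator of Rac. Tiam1 held 3 intronic members and 0 mirror regions, with het ranks of 24.3 to 47.7 and mutant ranks of 60.2 to 63.1. Pard3, a polarity protein, held 3 members with mutant ranks of 26.4 to 54.8, Jam3, a junction adhesion protein, 1 with ranks of 30.5 and 55.0, and Astn2, which takes part in migration along glia, 6 with 5 mirror regions. Adhesion and guidance genes Cntn1, Nrcam and Dcc held 2 each, and Unc5b and Sema6a 1 each. The Cntn1 member with the highest mutant rank of the 41, 72.4, had a het rank of 22.6. Among transcription factors, Nfia held 3 members, Nfib 2, and Nfix, Pbx3 and Meis2 1 each. The member counted for Neurod1 lay in the stretch before the gene and in an exon of Gm26755, with Cerkl as the nearest start, and was weak, with ranks of 1.55 in het and 1.07 in mutant and a WT peak 453 bp away. Rbfox3, which encodes the NeuN antigen of mature neurons, held 2, and Reln, Ntrk2 and Grin2a 1 each.

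Genes that mark other cerebellar cells held 25 members in 680 regions, 3.68% (2.50 to 5.37), and 6 mirror regions, 0.882% (0.405 to 1.91). The intervals did not overlap within this list. They were apart over all regions too, at 2.95 to 3.11 for members and 1.61 to 1.73 for mirror regions. Intervals of the classes were also apart at genes lower in mutant GNPs, described below. The separation is thus not particular to genes of other cells. Their member interval included the 3.03% of all regions, and their mirror interval the 1.67%. Among the Purkinje cell genes, Rora, Dab1 and Itpr1 had 3 members each and Foxp2 had 2, whereas Pcp2, Calb1, Car8, Lhx1, Lhx5 and Skor2 had none. Rora and Dab1 also held 2 mirror regions each. The mutant ranks at Foxp2 were 0.118 and 25.8. Whether other cells in the preparations had a part in these members was not tested.

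Synaptic and adhesion genes held members at shares near that of all regions. Axon guidance and adhesion genes held 100 in 3574 regions, 2.80% (2.31 to 3.39), with 10 at Lsamp, 6 at Cntnap2 and 5 each at Slit3, Opcml and Cntn5. Ion channel and transmitter receptor genes held 48 in 1548, 3.10% (2.35 to 4.09), with 6 at Kcnip4, a modulator of potassium channels, and 4 at Kcnma1. Of the lists of names that the study drew from its own expression data, genes lower in homozygous mutant GNPs held 76 members in 2697 regions, 2.82% (2.26 to 3.51), with 6 at Dlg2, a synaptic scaffold, and 5 at Nrg1. Genes that the study lists as activated by both Chd7 and Top2b held 166 in 6179, 2.69% (2.31 to 3.12), among them Arid1b with 5 and Lrrc4c with 4. The names used for the latter are fewer than the set described in the text of the study. Every one of these shares had an interval that included 3.03%. Mirror regions, 1.67% of all regions, made up 2.07% (1.65 to 2.59) at axon guidance and adhesion genes, 1.87% (1.31 to 2.68) at channel and receptor genes, 1.63% (1.22 to 2.18) at genes lower in mutant GNPs and 1.99% (1.671 to 2.37) at those activated by both Chd7 and Top2b.

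**Figure D5:**
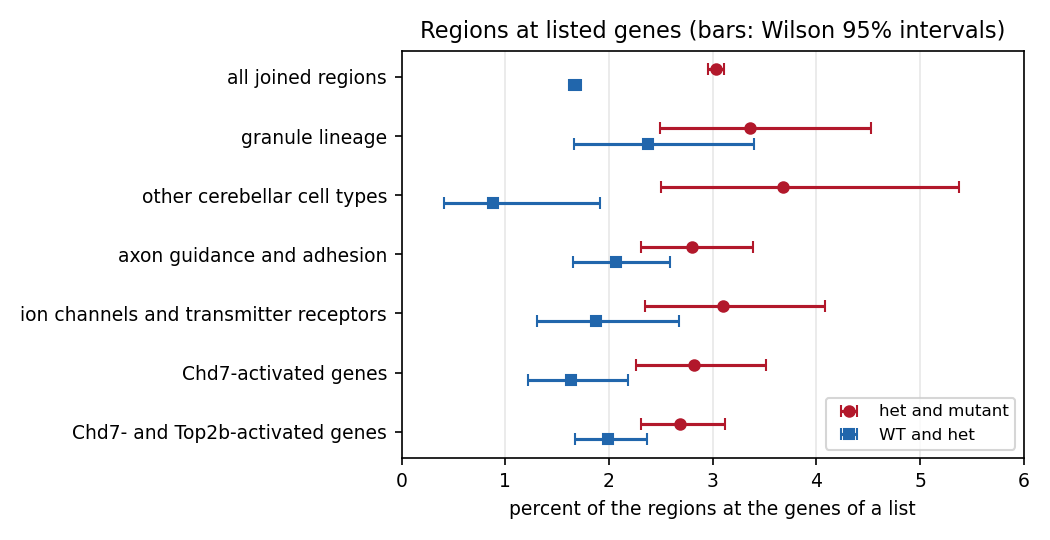
Share of the joined regions at the genes of each list (horizontal axis, percent) that are members, as circles, or regions in WT and het, as squares; bars are Wilson 95% intervals. All intervals of the members include the 3.03% of all joined regions, and the widest gap between the classes is at genes of other cerebellar cell types.

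With the same stretches before and after the gene body, 2766 of 25259 genes held a member, of which 2141 were coding and 625 lncRNA genes. Most held 1 (2191 genes), 384 held 2 and 34 held 5 or more. These 34 had a median length of 1079 kb. The genes named next were picked for their member counts, and the mirror counts beside them are descriptions. The share of members among regions at coding genes went from 1.69% for genes of up to 10 kb to 3.35% for genes over 300 kb. Regions in overlapping genes were counted once per gene, and regions at a TSS were not set apart. No mirror share by gene length was computed, so whether this is particular to members was not tested. Slc7a11, the cystine and glutamate exchanger, held 7 members in 52 regions of its 551.1 kb gene model and 0 mirror regions, with mutant ranks of 34.7 to 60.01. Ptprm, a receptor phosphatase of cell contacts, held 8 in 80 with 1 mirror region, and mutant ranks of 1.91 to 67.6. Lsamp, an adhesion protein of neurons, held 10 in 200 with 3 mirror regions, and its strongest had fold enrichments of 5.17 in het and 7.89 in mutant. The gene models Gm20388, with 13 in 521, Fgfr2, with 9 in 264, and Gm37240, with 7 in 115, span 4435, 2961 and 1391 kb. Pde4d, which degrades cyclic AMP, held 6 in 155.

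Members were spread over the genome. Chromosomes held between 2.71% and 3.36% members, the highest on chromosome 10. Of 2407 bins of 1 Mb, 374 had 0 and 284 had 5 or more, and 5.13% of members had another within 10 kb. The fullest bin, chr13:103000001-104000000, held 10 members in 84 regions (11.9%), of which 4 lay in Mast4, a microtubule-associated kinase, 3 between genes with the start of Mast4 as the nearest, and 2 in Srek1, a splicing regulator. The bins chr18:21000001-22000000 and chr3:50000001-51000000 held 9 each, in 102 and 97 regions, and the latter includes Slc7a11. The bins were picked for their counts, and no test was made of them. Chd7 itself held 2 members and 1 mirror region.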

How the data were processed

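ATAC-seq peak lists of 8 libraries in 3 groups were used, 1 list per genotype, called by the authors on pooled libraries. Per the labels, reads were trimmed with Trim Galore 0.4.1, aligned to mm10 with STAR 2.5.0b (WT, mutant) or Bowtie 1.0.0 (het), cleared of duplicates with Picard 1.139 and called with MACS2 2.1.0.20150731. Per the file headers, the q-value cutoff was 0.05 without a control. The deposited signal is the pileup at the summit, the deposited fold enrichment is its ratio to the local background, and the deposited -log10 q value was used for ranks. All columns had a group (0 without).

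Peaks less than 300 bp apart were joined on 19 autosomes, and the joining was tested on simulated intervals. Location was read at the mutant summit, or the WT summit for regions without a mutant peak, in GENCODE M21. Windows of 100 bp to either side of the summit came from the GRCm38 RefSeq assembly, and no peak passed the end of the 21 chromosomes compared. Calculations used python 3.11.15, numpy 2.4.6, pandas 2.3.3 and pysam 0.24.0.

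Named were the 20 members highest by the lower of their ranks, the 10 highest at a TSS, the 10 genes with most members, granule-lineage genes with a member, up to 5 genes of each other list and the 3 fullest bins. Members, lists and motifs were chosen with earlier results of these data known. Names of the study's expression lists came from its supplement, with 151 names of genes lower in mutant GNPs and 203 of genes that depend on Chd7 and on Top2b for their activation, the latter fewer than the set described in the text of the study. With 1 pooled list per genotype, no test between genotypes could be made. Alternatives were other joining distances, stricter thresholds, lists of equal length, the sex chromosomes, overlap of the het and mutant peaks, ranks by fold enrichment and other windows. The values of 2 genes that count within the gene lists are not reported here.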

Additional observations from a re-analysis of the deposited data

How the results depend on the processing

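The number of members was between 3936 and 5947 under the alternatives set at the start. This range is not the stability of 1 set. Stricter thresholds and equal lengths were applied before joining, so regions with a WT peak below the cut were counted too. Of the 5648 main members, 940 had -log10 q of 5 or more in both het and mutant, against 5247 counted at that setting. Joining overlapping peaks alone gave 2.93% of regions as members and 7.70% of members at a TSS, and joining up to 1000 bp gave 5.81% at a TSS. A -log10 q of 5 or more gave shares of 4.58%, 9.03% at a TSS and 40.7% intergenic, and a fold enrichment of 4 or more gave 2.89%, 7.98% and 42.5%. Lists of equal length gave 5.30%, 9.02% and 40.02%. Requiring the het and mutant peaks to overlap gave 2.84% of regions. Ranking by fold enrichment moved the median ranks to 19.6 in het and 35.3 in mutant. A window of 200 bp to either side gave a median GC of 47.9% and the E-box word in 39.8% of members and 45.7% of mirror regions. Main windows are centred on the mutant summit in members and on the WT summit in mirror regions. Centred on the het summit in both, 26.5% of members (25.4 to 27.7) and 31.6% of mirror regions (30.0 to 33.2) held the E-box word. The main shares with TSS included were 26.7% and 33.0%. Added after seeing the data, leaving out members with a soft-masked base in the window left 2780 members (1.49%), with 7.41% at a TSS and 40.8% intergenic, and leaving out members with a WT peak within 1000 bp gave 2.66% of regions and 5.90% at a TSS.

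No alternative reversed the order of members and mirror regions for the E-box word or the A-rich word where both were computed. Under stricter thresholds and lists of equal length, the regions compared were partly others than in the main setting. No paired analysis was possible because each genotype has 1 pooled list, and leaving out single replicates was not run for the same reason. Depth limits the comparison, since the het list, which members need a call in, rests on the fewest tags and holds the fewest peaks. By the labels and headers, its aligner and tag extension differ as well. The WT list rests on nearly as many tags as the mutant list, but on longer ones. In any list, the absence of a call is not the absence of open chromatin.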

Other observations

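The open site downstream of Atoh1, a basic helix-loop-helix gene that defines granule progenitors, was no member because it had a peak in every list. Its rank was 91.4 in WT, 99.0 in mutant and 99.8 in het, with fold enrichments of 6.49, 7.76 and 9.26 in that order. Its pileup was 72, 121 and 218, but het tags were extended to 200 bp against 90 bp in WT and 88 bp in mutant, and the median pileup of all peaks was 24 in het and 16 in both other lists. Het and mutant carry an Atoh1-Cre transgene and WT does not. The part of the transgene in these values was not tested.

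The promoter of Xist on chromosome X held peaks with a highest rank of 75.9 in WT, 75.5 in het and 89.3 in mutant. Of the joined regions of chromosome Y, 11 were in WT alone, 10 in all 3 lists, 10 in WT and mutant, 1 in WT and het and 0 in het and mutant without WT.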
